A study of Mus musculus with 16 samples.

Results

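The simple epithelial keratins described here are *Krt7*, *Krt8*, *Krt18* and *Krt19*, 4 of the 19 keratin genes among the 14474 genes of the count table. The 4 were chosen by gene symbol, and the choice was made with their levels in these libraries known, above all the difference in *Krt19* between cells with and without integrin α3. Their levels in MKα3+ against MKα3− cells are therefore given as a description with no test. The MKα3− line comes from mouse keratinocytes that were immortalized and have no α3 integrin. The MKα3+ line was made from it by expressing human α3, so the loss of mouse α3 is common to both. Each line was grown on collagen-coated dishes in low-calcium medium at 33 °C and 8% CO2, and was then given laminin-332 (LN332, a laminin of the epidermal basement membrane and a ligand of integrin α3β1) at 0.02 mg/mL, or the vehicle of buffered saline with glycine and azide, for 16 to 24 h. Poly(A) RNA was sequenced from 4 replicates per group, 16 libraries in all. The labels do not say whether the replicates were separate cultures, so the p-values measure the spread between these samples, which may be technical. Each line is a single line, so what belongs to α3 and what belongs to the line cannot be told apart.

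Keratins are the intermediate filament proteins of epithelial cells, and a filament is built from pairs of an acidic type I and a basic type II keratin. *Krt8* (type II) and *Krt18* (type I) encode the pair found in nearly all simple epithelia, such as those of gut, liver and gland ducts. *Krt7* is a type II keratin of ducts and other glandular cells, and *Krt19* is an unusually short type I keratin found in ducts and, in skin, in cells of the hair follicle bulge. Basal keratinocytes mainly use the pair *Krt5* and *Krt14*, and simple keratins in skin are best known from Merkel cells and from keratinocytes in culture or in tumours.

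Libraries held between 21735708 and 29338370 counts (median 27036993). The defining genes of basal keratinocytes were abundant, with *Krt5* between 2139 and 6986 CPM (counts as a share of the library's reads, with TMM factors of edgeR for library composition), *Krt14* between 2905 and 8296 CPM and *Trp63*, the regulator of stratified epithelia, between 30.4 and 168 CPM. Mouse *Itga3*, the targeted gene, was between 211 and 303 CPM in MKα3− cells with vehicle and 218 to 317 CPM with LN332, and between 211 and 312 CPM in MKα3+ cells with vehicle and 272 to 314 CPM with LN332. These groups overlap. A count over the whole gene does not show which exons were deleted, and the restored α3 is human, so it checks neither label.

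In the mouse genome (GRCm38.p6, the patch release of the mm10 build to which the authors mapped their reads) *Krt7*, *Krt8* and *Krt18* lie in the type II keratin cluster of chromosome 15. *Krt7* (Entrez 110310) spans chr15:101412403-101427806 on the plus strand in 9 exons, *Krt8* (Entrez 16691) spans chr15:101996711-102004342 on the minus strand in 9 exons, and *Krt18* (Entrez 16668) spans chr15:102028216-102032026 on the plus strand in 7 exons. *Krt18* is thus a type I keratin gene beside its type II partner. *Krt19* (Entrez 16669) lies in the type I cluster at chr11:100140810-100145926 on the minus strand, in 6 exons. An exon of *Krt7* shares 77 bases with *Gm671* and an exon of *Krt8* shares 101 bases with *Gm36026*, both on the opposite strand. Of the 75-base words of the *Krt8* transcript, 22.0% also occur in the pseudogene *Krt8-ps*, so the *Krt8* count is uncertain by the reads that could map to both. No 75-base word of the other 3 transcripts was shared with another gene.

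No RefSeq promoter was matched to *Krt19*, so only the promoters of the 3 members on chromosome 15 are shown. Each runs from 250 bases before the RefSeq gene start to 10 bases after it, 5′ to 3′ on the gene's own strand (GRCm38.p6). They are at chr15:101412153-101412412 (plus strand), chr15:102004333-102004592 (minus strand) and chr15:102027966-102028225 (plus strand). Capitals mark matches to 1 of 8 motifs searched on both strands.
Krt7: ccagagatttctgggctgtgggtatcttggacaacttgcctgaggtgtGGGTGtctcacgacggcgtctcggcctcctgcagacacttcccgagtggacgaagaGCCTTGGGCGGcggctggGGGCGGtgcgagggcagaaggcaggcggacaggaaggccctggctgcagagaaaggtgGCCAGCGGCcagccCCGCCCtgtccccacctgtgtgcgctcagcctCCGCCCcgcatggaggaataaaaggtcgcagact
Krt8: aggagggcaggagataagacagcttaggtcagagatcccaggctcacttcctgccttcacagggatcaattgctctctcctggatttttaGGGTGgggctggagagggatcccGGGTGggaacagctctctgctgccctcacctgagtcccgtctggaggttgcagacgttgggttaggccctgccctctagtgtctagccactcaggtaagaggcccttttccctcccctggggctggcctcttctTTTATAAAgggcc
Krt18: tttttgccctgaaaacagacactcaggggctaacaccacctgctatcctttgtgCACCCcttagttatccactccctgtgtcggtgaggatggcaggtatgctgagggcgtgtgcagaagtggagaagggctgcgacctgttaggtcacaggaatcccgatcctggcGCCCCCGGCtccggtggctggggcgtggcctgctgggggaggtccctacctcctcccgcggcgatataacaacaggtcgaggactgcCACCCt
The TATA box was searched as TATAAA, which 12.7% of 32851 mouse promoters of this length held. The GC box bound by SP factors was searched as GGGCGG (in 33.4% of those promoters), and the KLF motif as CACCC (in 53.2% of them). The AP-1 motif was searched as TGANTCA (in 7.03% of promoters), and the AP-2 motif as GCCNNNGGC, with N any base (in 14.2% of promoters). The grainyhead motif was searched as AACCNGTT (in 1.86% of promoters), the TEAD motif as CATTCC (in 13.2% of promoters) and the ETS motif as ACCGGAAG (in 1.92% of promoters). Counting -1 as the base before the start, the *Krt7* promoter held 4 GC boxes, 2 AP-2 matches and 1 KLF match. Its first AP-2 match, from -146 to -138, overlaps its first GC box, from -141 to -136. The *Krt8* promoter held 2 KLF matches and 2 overlapping TATA box matches on opposite strands, from -3 to 3 and from -1 to 5, at the annotated start itself. The *Krt18* promoter held 2 KLF matches and 1 AP-2 match, from -83 to -75. None of the 3 windows held the AP-1, grainyhead, TEAD or ETS letters.

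*Krt19* was the keratin with the largest fold difference between the lines, though not the largest in CPM. In vehicle-treated MKα3− cells it was at 6.60, 3.83, 7.93 and 6.98 CPM (mean 6.34 ± 1.76, SD, n = 4), which rests on between 113 and 224 reads a library. In vehicle-treated MKα3+ cells it was at 381, 340, 398 and 313 CPM (358 ± 38.6, SD, n = 4). No library of one line came near any library of the other, and the log2 fold change was 5.87 (SE 0.23), or 58.3-fold higher in MKα3+ cells. With LN332 it was at 6.25, 3.57, 5.28 and 8.02 CPM in MKα3− cells (5.78 ± 1.86, SD, n = 4). It was at 320, 268, 448 and 287 CPM in LN332-treated MKα3+ cells (331 ± 81.2, SD, n = 4). The lines then differed by 5.90 on the log2 scale (SE 0.24). The order of the 4 groups followed the line, and within each line the vehicle and LN332 libraries overlapped.

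*Krt8* and *Krt7*, the type II members, were higher in MKα3+ cells by smaller amounts. *Krt8* was at 585, 505, 528 and 590 CPM in vehicle-treated MKα3− cells (552 ± 42.2, SD, n = 4) and at 1266, 1175, 1443 and 1282 CPM in vehicle-treated MKα3+ cells (1292 ± 112, SD, n = 4). The log2 fold change was 1.23 (SE 0.11), or 2.34-fold, and it was 1.12 (SE 0.11) in LN332. *Krt7* was at 1354, 1194, 1122 and 1301 CPM in vehicle-treated MKα3− cells (1243 ± 105, SD, n = 4) and at 2093, 2203, 2251 and 2157 CPM in vehicle-treated MKα3+ cells (2176 ± 67.0, SD, n = 4). Its log2 fold change was 0.81 (SE 0.11), or 1.75-fold, and 0.78 (SE 0.11) in LN332. For both genes every MKα3+ library was above every MKα3− library of the same treatment, as the groups also did not overlap, in either direction, for 32.9% of all genes in vehicle and 26.5% in LN332.

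*Krt18* stood apart from its partner. It was at 515, 303, 278 and 299 CPM in vehicle-treated MKα3− cells (349 ± 112, SD, n = 4) and at 417, 354, 386 and 344 CPM in vehicle-treated MKα3+ cells (375 ± 33.1, SD, n = 4). The groups overlapped, and the log2 fold change was 0.15 (SE 0.21, 95% interval -0.29 to 0.59). In LN332 it was 0.07 (SE 0.21, 95% interval -0.38 to 0.52), with 669, 354, 351 and 444 CPM in MKα3− cells and 599, 376, 492 and 404 CPM in MKα3+ cells. Replicate 1 was the highest library for *Krt18* in each of the 4 groups, and without the libraries numbered 1 the log2 fold change in vehicle was 0.30.

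**Figure D1:**
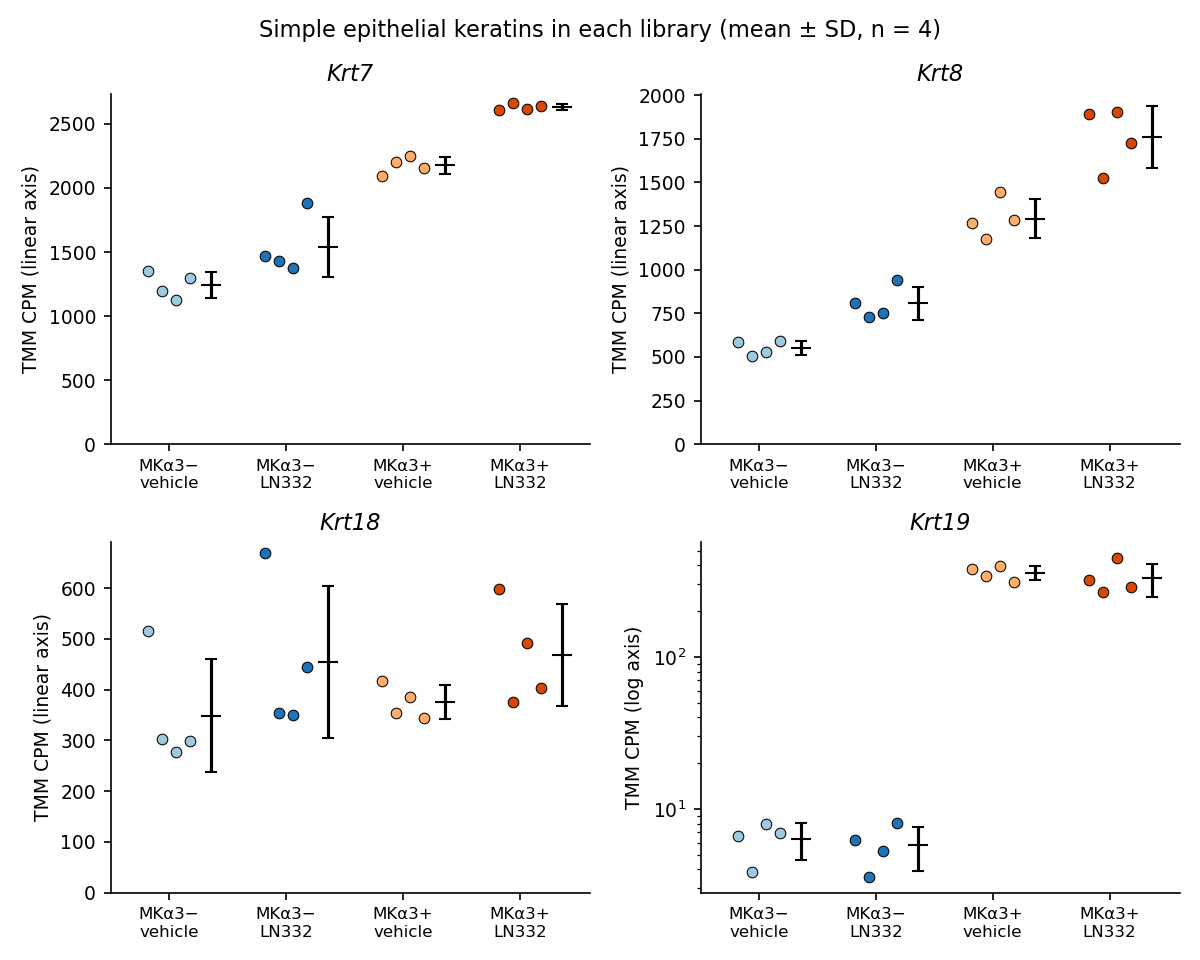
Level of each simple epithelial keratin in the 16 libraries, in TMM CPM (vertical axis, linear from 0 for Krt7, Krt8 and Krt18 and logarithmic for Krt19), by line and treatment (horizontal axis). Points are libraries in the order of their replicate numbers, and the bar beside them is the mean ± SD of 4; the lines are apart for Krt7, Krt8 and Krt19 and overlap for Krt18, where replicate 1 is the highest point of every group.

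Over all genes, 18.5% were past the threshold between the lines in vehicle and 20.6% in LN332 (limma-voom, adjusted p under 0.05 with Benjamini-Hochberg adjustment over all genes and an absolute log2 fold change over 0.5), with 1582 higher and 1094 lower in MKα3+ cells in vehicle. Since the members were chosen on this comparison, nothing is read from their own count against these shares. In bulk RNA, a larger number of cells that carry a transcript and more RNA per cell cannot be told apart. The difference in *Krt19* was between 5.64 and 5.99 in vehicle on the log2 scale when each library was left out in turn, that in *Krt8* between 1.17 and 1.27, and that in *Krt7* between 0.76 and 0.85.

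The unequal differences changed the balance between partners. The ratio of *Krt8* to *Krt18* reads was 1.14, 1.67, 1.90 and 1.97 in vehicle-treated MKα3− cells and 3.03, 3.31, 3.74 and 3.73 in vehicle-treated MKα3+ cells. With LN332 it was between 1.21 and 2.15 in MKα3− cells and between 3.16 and 4.28 in MKα3+ cells, so the lines did not overlap in either treatment. Within the type I members, *Krt19* made up 1.47% ± 0.60 (SD, n = 4) of the CPM per kb of *Krt18* and *Krt19* together in vehicle-treated MKα3− cells, and 42.5% ± 1.41 (SD, n = 4) in vehicle-treated MKα3+ cells. In LN332 these shares were 1.01% ± 0.31 and 35.4% ± 4.93 (SD, n = 4 each). CPM per kb is the level divided by the summed length of a gene's exons. The summed type II members against the summed type I members, on the same scale, gave 1.96 ± 0.42 in vehicle-treated MKα3− cells and 2.14 ± 0.19 in vehicle-treated MKα3+ cells (SD, n = 4 each), which overlap. With the length of each gene's longest transcript the means were 2.49 and 2.45, so their order depends on the length used. In LN332 the ratio over all exons was 2.09 ± 0.51 and 2.58 ± 0.34 (SD, n = 4 each), again with overlap.

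**Figure D2:**
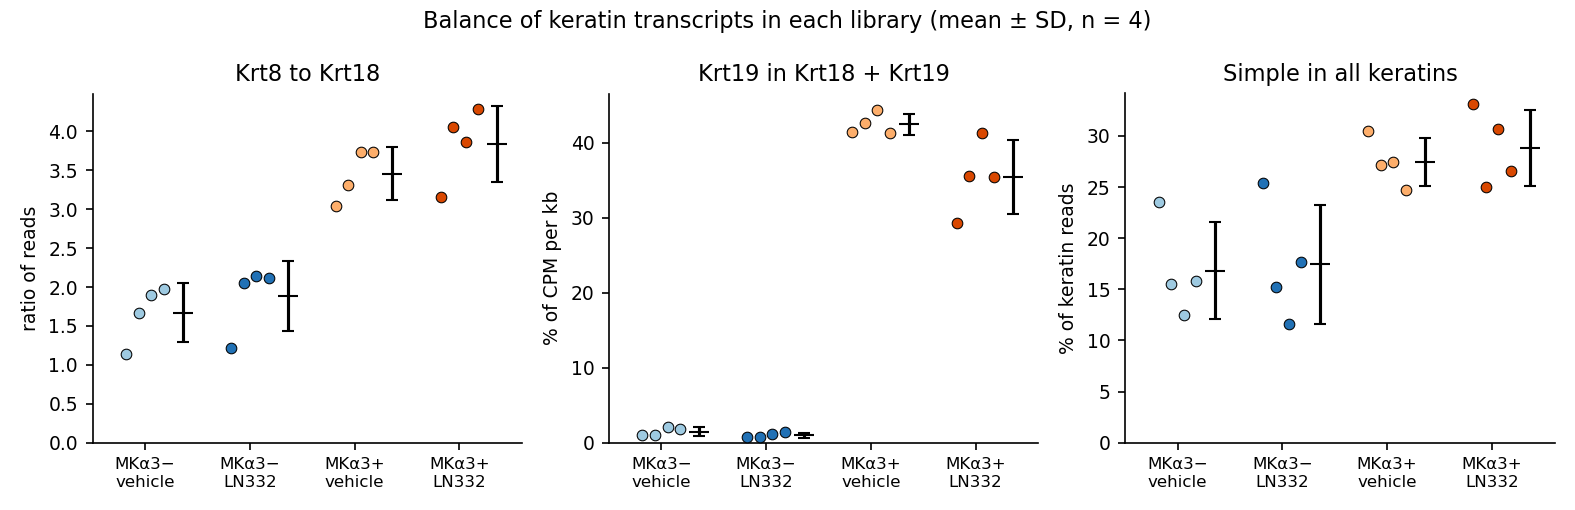
Ratio of Krt8 to Krt18 reads, share of Krt19 in the CPM per kb of Krt18 and Krt19 together, and share of the 4 simple keratins in the reads of all 19 keratin genes (vertical axes, from 0), by line and treatment. Points are libraries and bars the mean ± SD of 4; the first 2 measures do not overlap between the lines, with a Krt8 to Krt18 ratio of at most 2.15 in MKα3− cells and at least 3.03 in MKα3+ cells.

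Compared per length, *Krt8* was the most abundant simple keratin of vehicle-treated MKα3+ cells, at 660 ± 57.1 CPM per kb, with *Krt18* at 261 ± 23.1 and *Krt19* at 193 ± 20.8 (SD, n = 4 each). In vehicle-treated MKα3− cells *Krt8* was at 282 ± 21.5 and *Krt18* at 243 ± 77.7 CPM per kb, which overlap, and *Krt19* at 3.42 ± 0.95 (SD, n = 4 each). The place of *Krt7* in this order depends on the length used. It was at 176 CPM per kb in vehicle-treated MKα3− cells and 309 in vehicle-treated MKα3+ cells with the 7049 bases of all its annotated exons, and at 304 and 532 with the 4094 bases of its longest transcript. The 4 simple keratins held 16.8% ± 4.73 of all keratin reads in vehicle-treated MKα3− cells and 27.5% ± 2.37 in vehicle-treated MKα3+ cells (SD, n = 4 each). All 19 keratins together held between 1.06% and 2.03% of all reads in every library.

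The comparison of LN332 with vehicle asks whether the ligand moves these genes, and within which line. The members were chosen with their levels in these libraries known, above all the difference between the lines. The p-values below are therefore not those of genes picked without sight of the data. *Krt8* rose with LN332 in MKα3− cells, and it was the only member past the threshold in either line. It was at 810, 728, 753 and 940 CPM with LN332 (808 ± 94.5, SD, n = 4), above all 4 vehicle libraries. The log2 fold change was 0.55 (SE 0.10, 95% interval 0.33 to 0.77, limma-voom adjusted p = 0.0326, two-sided exact permutation p = 0.0286, the smallest p that 4 against 4 allows). Over all genes, 0.304% were past the threshold in this comparison, and the groups did not overlap for 4.95%. This call lies near both limits. It was lost, with adjusted p between 0.0521 and 0.118, when vehicle-treated MKα3− replicate 2, 3 or 4, LN332-treated MKα3− replicate 2 or 4, vehicle-treated MKα3+ replicate 4, or LN332-treated MKα3+ replicate 3 or 4 was left out, while the log2 fold change stayed between 0.47 and 0.60.

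In MKα3+ cells *Krt8* was at 1890, 1525, 1902 and 1728 CPM with LN332 (1761 ± 177, SD, n = 4), again above all 4 vehicle libraries. The log2 fold change of 0.45 (SE 0.11, 95% interval 0.21 to 0.68) was under the minimum of 0.5 and did not pass the adjusted test (limma-voom adjusted p = 0.136, two-sided exact permutation p = 0.0286). Here 0.187% of all genes were past the threshold, and the groups did not overlap for 9.66%. The difference of the responses between the lines was -0.10 (SE 0.15, 95% interval -0.43 to 0.22, limma-voom adjusted p = 0.9999). No gene passed that test of the difference (0.0% of all genes), with 164 genes at an unadjusted p under 0.05, and edgeR and DESeq2 also called 0, with 168 and 207 at that p.

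*Krt7* had a smaller difference of the same sign in both lines. With LN332 it was at 1471, 1433, 1375 and 1884 CPM in MKα3− cells (1541 ± 232, SD, n = 4) and at 2612, 2660, 2616 and 2639 CPM in MKα3+ cells (2632 ± 22.0, SD, n = 4). Neither treated group overlapped its vehicle group, as was the case for 4.95% of all genes in MKα3− cells and 9.66% in MKα3+ cells. Neither log2 fold change passed the test. It was 0.31 in MKα3− cells (SE 0.10, limma-voom adjusted p = 0.205) and 0.27 in MKα3+ cells (SE 0.11, limma-voom adjusted p = 0.401), with a two-sided exact permutation p of 0.0286 in each. For both *Krt7* and *Krt8* the order of the 4 groups ran from vehicle-treated MKα3− cells through LN332-treated MKα3− and vehicle-treated MKα3+ cells to LN332-treated MKα3+ cells, with no overlap between neighbours. The share of all genes with such an order was not counted.

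*Krt18* and *Krt19* did not pass the test for LN332 in either line, and their treated and vehicle libraries overlapped. For *Krt18* the log2 fold change was 0.38 in MKα3− cells (95% interval -0.07 to 0.82, limma-voom adjusted p = 0.441) and 0.30 in MKα3+ cells (95% interval -0.15 to 0.74, limma-voom adjusted p = 0.769). For *Krt19* it was -0.17 in MKα3− cells (95% interval -0.78 to 0.43, limma-voom adjusted p = 0.854) and -0.14 in MKα3+ cells (95% interval -0.51 to 0.23, limma-voom adjusted p = 0.907). The intervals of *Krt18* still hold a rise past the minimum of 0.5 and those of *Krt19* a fall past it.

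**Figure D3:**
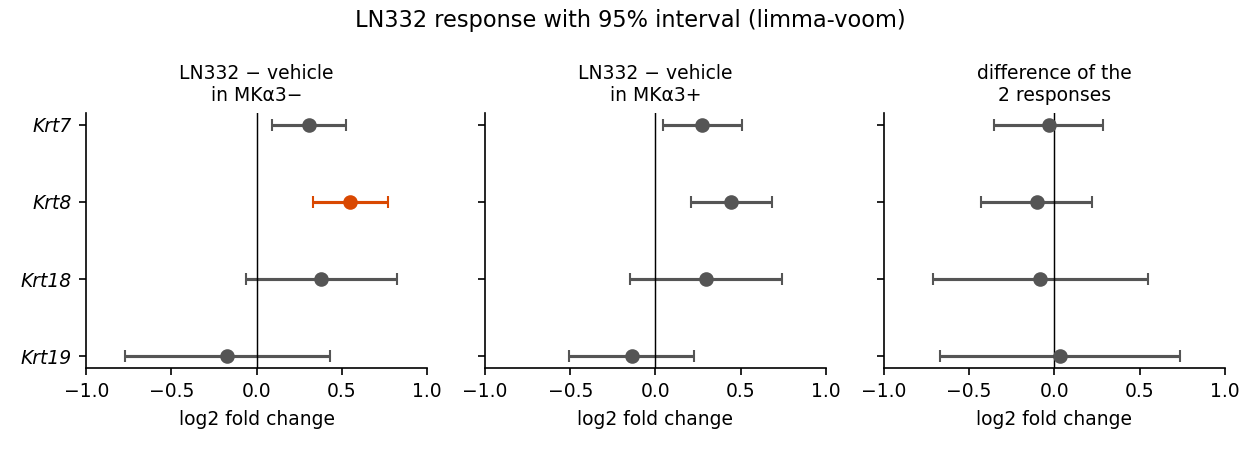
Log2 fold change of each simple keratin with LN332 against vehicle in MKα3− cells, in MKα3+ cells, and the difference of these responses between the lines (horizontal axes), from limma-voom over 16 libraries. Points are estimates and bars 95% intervals; Krt8 in MKα3− cells, in orange, is the only one past the threshold, and every interval of the difference spans 0.

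The other 15 keratins showed no common direction between the lines. In vehicle 3 were higher in MKα3+ cells, 3 were lower and 9 did not pass the test, with a median log2 fold change of -0.24 against 0.01 over all genes. The share of all genes past the threshold between the lines was 18.5% in vehicle and 20.6% in LN332. The higher ones were *Krt20*, a keratin of gut epithelium and Merkel cells (3.19, SE 0.73, at mean levels of only 0.23 CPM in MKα3− cells against 1.76 CPM in MKα3+ cells), *Krt80*, a type II keratin of many epithelia (1.76, SE 0.17), and the stress keratin *Krt17* (0.78, SE 0.15). The lower ones were *Krt78* (-2.71, SE 0.65), *Krt15*, a marker of basal and bulge cells (-2.64, SE 0.72), and *Krt42* (-0.86, SE 0.30). These 3 were also at low mean levels in MKα3− against MKα3+ cells. *Krt78* was at 3.51 and 0.45 CPM, *Krt15* at 6.10 (SD 4.23) and 0.79 CPM, and *Krt42* at 2.825 and 1.48 CPM. Of the basal and stress keratins, *Krt5* (-0.54) and *Krt14* (0.47) did not pass in vehicle. In LN332 4 of the 15 were higher and 4 lower, now with *Krt5* among the lower (-0.80, SE 0.23). None of the 15 passed for LN332 against vehicle in either line. Only 0.304% of all genes passed in that comparison in MKα3− cells and 0.187% in MKα3+ cells, so this is not read as a lack of response. Their median log2 fold change with LN332 was 0.29 in MKα3− and 0.27 in MKα3+ cells. The medians of the 4 members were 0.34 and 0.29. In MKα3− cells *Krt78* (0.77), *Krt80* (0.74) and *Krt16* (0.66) had larger log2 fold changes than *Krt8* (0.55), and the others smaller ones. In MKα3+ cells *Krt42* (0.63) and *Krt80* (0.55) exceeded *Krt8* (0.45), and the others did not. A positive difference with LN332 was thus not particular to the simple keratins.

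**Figure D4:**
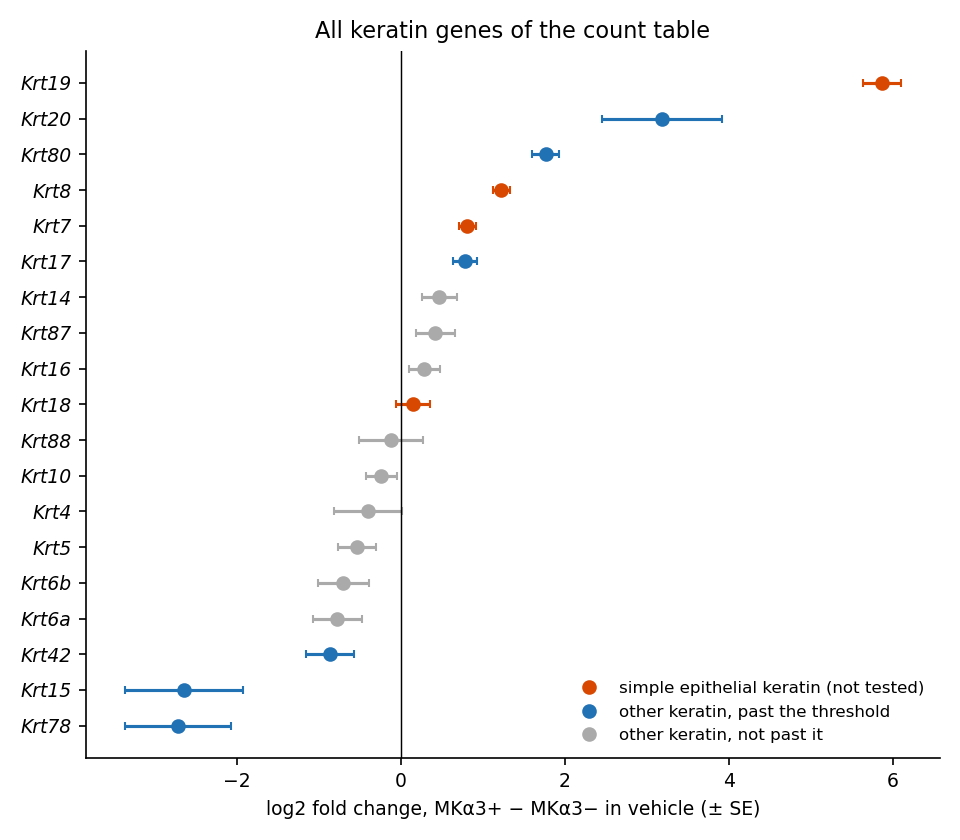
Log2 fold change between MKα3+ and MKα3− cells in vehicle (horizontal axis, ± SE) of all 19 keratin genes in the count table, ordered by value. Orange points are the simple epithelial keratins, given without a test, blue points other keratins past the threshold and grey points the remaining ones; Krt19 is the highest at 5.87 and Krt18 lies near 0 at 0.15.

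Nearby genes did not share the members' differences as a block. Within 10 Mb of *Krt8*, 130 genes had a median log2 fold change of 0.00 between the lines in vehicle, with 12 higher and 13 lower. Measured from *Krt8* they lay between -9.80 and 1.52 Mb, so most of this stretch is on the side of lower coordinates. Within 10 Mb of *Krt19*, 281 genes had a median of -0.03, with 19 higher and 27 lower. Of all genes, 18.5% were past the threshold in this comparison. The nearest keratins went both ways. *Krt80*, 60.9 kb from *Krt7* (centre to centre), was higher, and *Krt78*, 29.2 kb from *Krt8*, was lower. *Krt15*, 9.5 kb from *Krt19*, was lower, while *Krt17*, 115 kb away, was higher. The lower *Krt78* and *Krt15* averaged at most 6.10 CPM in either vehicle-treated line.

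**Figure D5:**
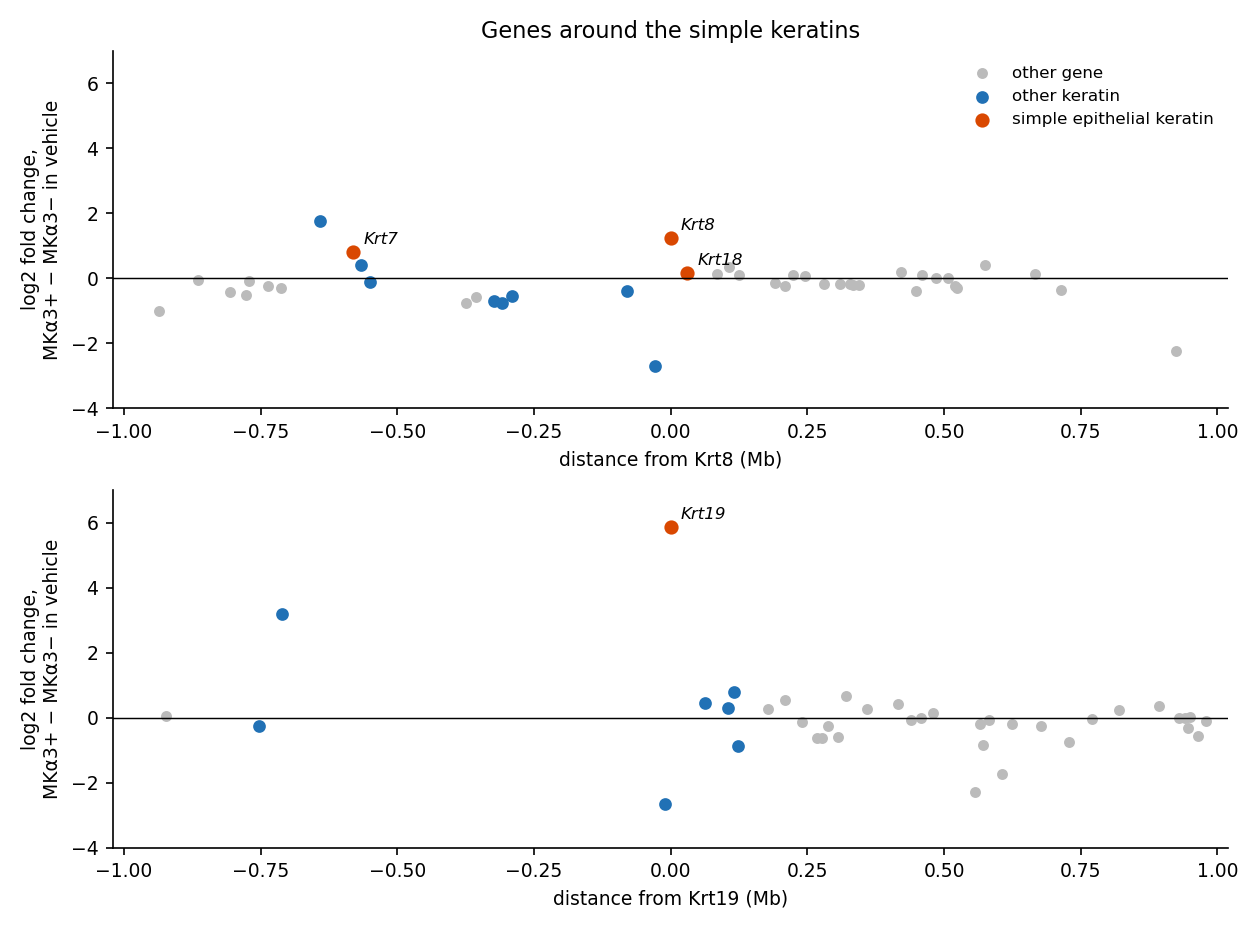
Log2 fold change between MKα3+ and MKα3− cells in vehicle (vertical axes) of the genes within 1 Mb of Krt8 (upper panel, 43 genes) and of Krt19 (lower panel, 39 genes), by distance in Mb (horizontal axes). Orange points are simple epithelial keratins, blue points other keratins and grey points other genes; Krt19, at 5.87, is far above its neighbours, while Krt8 and Krt18 lie side by side at 1.23 and 0.15.

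Among 17 measured genes of simple, glandular or ductal epithelia other than the members, 4 were higher in MKα3+ cells in vehicle, 0 were lower and 13 did not pass, with a median of 0.14 (0.01 over all genes). In the same comparison 18.5% of all genes passed, 1582 higher and 1094 lower, so 4 of 17 is not read as a shift of these genes. The 4 were the tight junction gene *Cldn3* (3.98, SE 0.24, from 6.05 ± 2.44 to 90.0 ± 7.53 CPM, SD, n = 4 each), *Krt20*, the membrane mucin *Muc1* (1.44, SE 0.17) and the tight junction gene *Marveld3* (1.21, SE 0.14). *Epcam*, the common surface marker of simple epithelia, was at 320 ± 72.6 and 369 ± 41.5 CPM (SD, n = 4 each) in the vehicle-treated lines and was not past the threshold. None of the 17 passed for LN332 in either line, where only 0.304% of all genes passed in MKα3− and 0.187% in MKα3+ cells.

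Among 29 measured transcription factors known to act on simple keratin promoters or in simple epithelia, 2 were higher in MKα3+ cells in vehicle, 4 were lower and 23 did not pass. Beside these counts, 18.5% of all genes passed between the lines in vehicle and 20.6% between the lines in LN332. The higher ones were the AP-1 subunits *Fos* (1.30, SE 0.41) and *Jund* (0.72, SE 0.17), and neither passed in LN332 (0.60 and 0.26). The lower ones were the AP-2 gene *Tfap2c* (-3.64, SE 0.56), the forkhead gene *Foxa2* (-1.24, SE 0.44), the ETS gene *Elf3* (-0.77, SE 0.22) and the grainyhead gene *Grhl3* (-0.64, SE 0.20). In LN332 0 were higher and 5 lower, with *Tfap2c*, *Elf3* and *Grhl3* again among them, *Ehf* (-0.59, SE 0.10) and *Trp63* (-0.91, SE 0.26) added, and *Foxa2* not past the threshold. The vehicle call of *Fos* was kept in 12 and that of *Foxa2* in 10 of 16 fits that each left out 1 library. *Tfap2c* was low in both lines, with means of 2.91 CPM in MKα3− cells against 0.22 CPM in MKα3+ cells. For LN332 against vehicle, *Klf6* (0.66, SE 0.13, adjusted p = 0.0359 from limma-voom) and *Sox9* (0.87, SE 0.15, adjusted p = 0.0275) rose in MKα3− cells, and none of the 29 passed in MKα3+ cells. In that comparison 0.304% of all genes passed in MKα3− cells and 0.187% in MKα3+ cells. Of the 16 fits that each left out 1 library, *Klf6* kept its call in 6 (0.58 to 0.72) and *Sox9* in 12.

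Of 31 genes whose products bind, fold or modify keratin filaments, 6 were lower in MKα3+ cells in vehicle, 1 was higher and 24 did not pass, while 18.5% of all genes passed. The higher one was the kinase gene *Rock2* (0.62, SE 0.12). The lower ones with the largest differences were the desmosomal plakophilin *Pkp2* (-3.30, SE 0.31), *Trim29* (-2.0, SE 0.18), the small heat shock gene *Hspb1* (-1.76, SE 0.16) and the cytolinker *Dst* (-0.63, SE 0.21). For LN332 against vehicle only *Sfn*, which encodes a 14-3-3 protein of stratified epithelia, passed, and it rose in MKα3− cells (0.77, SE 0.15, adjusted p = 0.0352 from limma-voom). Of all genes, 0.304% passed in that comparison in MKα3− cells and 0.187% in MKα3+ cells. The *Sfn* call was kept in 7 of 16 fits that each left out 1 library (0.64 to 0.86). None of the 5 caspase genes whose products cut keratin 18 or act upstream of that cut passed between the lines in vehicle. Between the lines in LN332, where 20.6% of all genes passed, *Casp6* was lower in MKα3+ cells (-0.59, SE 0.13). Among 8 measured intermediate filament genes that are not keratins, *Des* was lower (-1.55, SE 0.43) and *Ina* higher (2.55, SE 0.93), the latter from a mean of 0.22 to 0.50 CPM and with a call kept in 4 of 16 fits that each left out 1 library (1.76 to 3.46), while *Vim* was at 4.09 ± 0.73 and 8.85 ± 4.86 CPM (SD, n = 4 each) and did not pass. None of the 8 passed between the lines in LN332.

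Markers of other cells that carry simple keratins were examined beside the members. Of 11 Merkel cell markers 6 were measured, and *Atoh1*, *Insm1*, *Chga*, *Pou4f3* and *Rab3c* are not analysed here. The 4 that are not members summed to 25.7 to 39.6 CPM in MKα3− cells and 9.57 to 11.9 CPM in MKα3+ cells in vehicle, with *Krt20* higher and *Sox2* lower (-4.87, SE 0.36). In LN332 the sums were between 28.6 and 43.1 CPM and between 9.78 and 11.9 CPM. Of 10 bulge markers 8 were measured (*Lgr5* and *Lhx2* are not analysed here), and the 7 other than *Krt19* summed to 66.8 to 75 CPM in MKα3− cells and 72.3 to 80.5 CPM in MKα3+ cells in vehicle. Of these, *Fgf18* was higher (0.93, SE 0.33) and *Krt15* lower. With LN332 these 7 summed to between 72.7 and 102 CPM in MKα3− cells and between 82.7 and 106 CPM in MKα3+ cells. Of 6 mesothelial markers 4 were measured (*Lrrn4* and *Gpm6a* are not analysed here), with sums of 886 to 1140 CPM in MKα3− cells and 800 to 870 CPM in MKα3+ cells in vehicle, and *Upk1b* lower (-1.15, SE 0.12). Their sums with LN332 were between 1122 and 1179 CPM and between 924 and 1144 CPM. In vehicle the Merkel and mesothelial sums were lower in every MKα3+ library than in any MKα3− library, and each was carried by 1 gene, *Sox2* (28.1 to 0.98 CPM) and *Upk1b* (484 to 218 CPM). The median log2 fold change was positive, at 0.61 for the 4 Merkel markers and 0.19 for the 4 mesothelial ones, and the bulge sums overlapped. The part of such cells in the members' levels was not tested.

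Markers of unrelated cells were examined in the same way. For comparison, 18.5% of all genes passed between the lines in vehicle and 20.6% in LN332. Of 8 immune markers 6 were measured (*Cd3e* and *Itgax* are not analysed here), and their sum was 83.8 to 149 CPM in MKα3− cells and 154 to 403 CPM in MKα3+ cells in vehicle. *Lyz2* (3.06, SE 1.11), *Csf1r* (1.51, SE 0.33) and *Cd74* (0.80, SE 0.20) were higher and the other 3 did not pass, and the call of *Lyz2* was kept in 6 of 16 fits that each left out 1 library. In LN332 the sums were between 83.9 and 136 CPM and between 130 and 403 CPM, which overlap. The vehicle difference goes the same way as that of the members, and its part in their levels was not tested. The 7 fibroblast markers measured of 10 summed to at most 60.7 CPM in any library, with *Twist2* (-2.23, SE 0.15) and *Fap* (-1.46, SE 0.39) lower in MKα3+ cells, the 5 endothelial markers of 7 to at most 8.27 CPM, and the 2 melanocyte markers of 7 to at most 10.6 CPM, with *Pmel* lower (-1.26, SE 0.23). Of the 13 basal keratinocyte markers 3 were lower in MKα3+ cells in vehicle, namely *Dsc3* (-7.81, SE 1.04), *Perp* (-0.70, SE 0.12) and *Lamb3* (-0.66, SE 0.14), and 0 were higher. In LN332 5 were lower, with *Krt5* and *Trp63* added. None of the 6 measured of 11 suprabasal differentiation markers passed in vehicle, and in LN332 *Krt10* (-0.54, SE 0.19) and *Ivl* (-1.16, SE 0.38) were lower.

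The genes whose level followed each member most closely were found by the correlation of log2 CPM over the 16 libraries, among the 11775 genes whose log2 CPM averaged 1 or more. The 16 points share 4 groups, so these values mostly reflect the differences between the groups, and they are given as a description. *Krt8* and *Krt7* went together (r = 0.98 over 16 libraries) and shared *Tpm1*, which encodes a tropomyosin, as their closest gene (r = 0.99 with *Krt8* and 0.98 with *Krt7*), and both also had *Krt80* and *Rhpn2* among their 5. The other genes near *Krt7* were *Dbn1* and *Usp43*, and those near *Krt8* were *Nedd9* and *Tns3*. *Krt19* was closest to *Slain1* (r = 0.997), followed by *Cd81*, *Prickle1*, *Tubb2b* and *Gm2a*, among 489 genes with an r over 0.9. The names depend on the measure, since with Spearman's correlation only 1 of the 5 was shared for *Krt19* and for *Krt7*, 2 for *Krt8* and 3 for *Krt18*. *Krt18* was closest to *Prss22* (r = 0.91), *Chmp5*, *Eny2*, *Srek1ip1* and *Hilpda*, and its r with its partner *Krt8* was 0.41 over the 16 libraries.

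With the mean of each group taken away, what remains is how replicates of 1 group vary together. On these deviations *Krt18* was closest to *Chmp5* (r = 0.96 over 16 libraries), *Plscr2*, *Icam1*, *Prss22* and *Plscr1*, and 39 genes had an r over 0.9. This is the variation in which replicate 1 stood above the rest. *Krt19* was closest to *Mapk13* (r = 0.89), *Dusp3*, *Pfn1*, *Aif1l* and *Tuba4a*, and *Krt8* to *2010300F17Rik* (r = 0.92), *Lypla2*, *Ivd*, *Lce1g* and *Ntf5*. *Krt7* was closest to *Mdfi* (r = 0.92), *Gm7664*, *Tpd52*, *Get1* and *Zmynd19*. Between the members, r was 0.72 for *Krt8* and *Krt19*, 0.65 for *Krt7* and *Krt8*, and 0.51 for *Krt8* and *Krt18*.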

How the data were processed

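Reads were aligned to mm10 (Rsubread) and assigned to genes (featureCounts, Entrez gene models supplied with it) by the authors, and the table they deposited holds unnormalized counts for 14474 genes and 16 libraries. Neither the strand setting nor the kit's strandedness is given in the sources used here. Every gene already met the methods' filter of over 0.5 CPM in at least 3 libraries, which removed 0 genes.

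TMM factors (edgeR 4.0.16) and limma-voom (limma 3.58.1, R 4.3.3) were used after the study's methods, and the choice to fit all 16 libraries together with 4 group coefficients was made here. A gene was called at an adjusted p under 0.05 (Benjamini-Hochberg, all genes) and an absolute log2 fold change over 0.5. Single genes were also compared by two-sided exact permutation of 4 against 4 libraries (70 splits). Correlations were Pearson's, on log2 CPM with a prior count of 1. No pair of replicates differed by as little as sampling noise (lowest chi-square per degree of freedom 5.45). RefSeq positions matched 97.2% of genes, and RefSeq promoters 3 of 4 members. Replicate numbers come from the labels.

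The members and gene lists were chosen with earlier results of these data known. The text names the members, up to 4 called genes per list with the largest difference between the lines in vehicle, any list gene called with LN332, the 5 genes closest to each member, and *Itga3*, *Krt5*, *Krt14* and *Trp63*. *Epcam*, *Vim*, *Krt16*, *Krt42*, *Casp6*, *Jund*, *Grhl3*, *Ehf*, *Rock2*, *Krt10* and *Ivl* are named outside this rule, with their values known. The alternatives tried were DESeq2 1.42.0, the quasi-likelihood test of edgeR, other size factors, other filters, a replicate block, sample weights, fits of the compared groups alone and each library left out.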

Additional observations from a re-analysis of the deposited data

Results flagged for a closer look

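*Krt18* in vehicle-treated MKα3− replicate 1 was at 515.5 CPM, far from the other 3 libraries of its group, which were between 278 and 303 CPM. It was the only one of 16 groups of 4 libraries (4 members in 4 groups) with a library this far from the rest by Dixon's test, and chance gives about 0.8 of 16. Replicate 1 was also the highest for *Krt18* in the other 3 groups, and it was the lowest for *Krt5* in all 4 groups. Without the libraries numbered 1, an alternative chosen after the data were seen, *Krt18* differed between the lines by 0.30 in vehicle and 0.14 in LN332 on the log2 scale, and *Krt8* still passed the test for LN332 in MKα3− cells (log2 fold change 0.57, limma-voom adjusted p = 0.0413).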

How the results depend on the processing

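Under the 28 alternatives run (16 of them leaving out 1 library), the log2 difference between the lines in vehicle was between 5.64 and 5.99 for *Krt19*, 1.17 and 1.27 for *Krt8*, 0.76 and 0.87 for *Krt7*, and 0.06 and 0.35 for *Krt18*. In LN332 these ranges were 5.67 to 6.24, 1.07 to 1.20, 0.72 to 0.88 and, with a change of sign, -0.06 to 0.27. The limma-voom call of *Krt8* with LN332 in MKα3− cells was lost with library size alone (log2 fold change 0.472, adjusted p = 0.0390) and with sample quality weights (0.490, adjusted p = 0.0420). In both, the log2 fold change fell under the minimum of 0.5. The call was also lost with the compared groups alone (0.551, adjusted p = 0.366), and the cause was not tested. With each library left out the log2 fold change was between 0.468 and 0.596. No call of another member was gained. In MKα3+ cells *Krt8* passed the p limit, but stayed under 0.5, in some fits. These were DESeq2 (0.451, adjusted p = 0.00510), limma-voom with sample quality weights (0.408, adjusted p = 0.00497) and edgeR with the replicate block (0.445, adjusted p = 0.0151). It did not pass that limit with edgeR without the block (adjusted p = 0.135). *Krt7* in MKα3+ cells passed it with sample quality weights (0.261, limma-voom adjusted p = 0.0135).

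The number of genes called with LN332 depended on the fit. In MKα3+ cells it was 27, against 4 with edgeR, 121 with DESeq2, 3 with library size alone, 454 with sample quality weights, 106 with the compared groups alone and between 0 and 47 with a library left out. In MKα3− cells it was 44, against 165 with DESeq2, 74 with library size alone, 123 with sample quality weights, 1 with the compared groups alone and between 1 and 150 with a library left out. Without the libraries numbered 1 it was 87 and 163. The cause was not tested.

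With the replicate number as a block (replicate block) it was 218 in MKα3+ and 259 in MKα3− cells, and 201 and 242 with edgeR. The labels state no shared origin for a number. Of same-numbered pairs, 16 of 24 had deviations correlated over 0.1 (lowest -0.05, highest 0.61, mean 0.24). Pairs with different numbers averaged -0.08, and 14 of 16 libraries correlated best with their own number. The main fit and the permutation test take no account of these numbers. Under the block *Krt8* gave 0.55 in MKα3− cells (limma-voom adjusted p = 0.00387) and 0.44 in MKα3+ cells (adjusted p = 0.0125), the latter still under the minimum of 0.5, and no call of a member changed. The adjusted p of *Krt18* was 0.0851 in MKα3− and 0.234 in MKα3+ cells under the block, against 0.441 and 0.769 without it.

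Counted over settings, the other named values and list counts stayed the same 1629 times, gained in calls 53 times and lost in calls 153 times. Staying the same means an unchanged call, a list count of similar size, a level within its SD, or closest genes that were mostly shared. A further 16 items with no test moved. These were levels that changed by more than their SD, and lists of closest genes that shared too few of their 5 names. With a library left out, the call was kept in 4 of 16 fits for *Ina*, 6 for *Lyz2* and *Klf6*, 7 for *Sfn* and 8 for *Fgf18*. Depth does not limit *Krt7*, *Krt8* or *Krt18*, while *Krt19* in MKα3− cells rests on between 101 and 224 reads a library.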
